A study of Mus musculus with 96 samples.

Results

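The erythroid programme outside the globin genes was followed in 8 genes, read cell by cell in mouse embryonic haematopoietic stem cells (HSCs) and their precursors. The genes were chosen by name, for their known place in red cell formation, with earlier results of these data known. The 4 early members were Gata1, Klf1, Epor and Tfrc, and the 4 late members were Alas2, Slc4a1, Epb42 and Rhd. They are 8 of the 19836 genes in the table, and all 8 were among the 15239 genes with at least 30 reads over all cells.

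Red cells arise from stem cells through progenitors that first switch on lineage transcription factors and then the machinery of the mature cell. Gata1 and Klf1 encode DNA-binding proteins that activate most erythroid genes, Epor encodes the receptor for erythropoietin, and Tfrc encodes the transferrin receptor that brings in iron. Alas2 encodes the erythroid enzyme that begins heme synthesis, Slc4a1 encodes the band 3 anion exchanger, Epb42 encodes the band 3 binding protein 4.2, and Rhd encodes a membrane protein of the Rh complex. The fetal liver is the main site of definitive red cell formation in the embryo, and it holds HSCs beside many erythroid cells.

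The cells came from C57BL/6 embryos, with 1 cell sorted per well and RNA read by SMART-Seq, a method that copies whole transcripts. Pre-HSCs at E11.5 came from the aorta-gonad-mesonephros region (AGM, 48 cells) or the yolk sac (16 cells), sorted as Ter119-CD11b-CD144+c-kit+EPCR+. Liver cells numbered 16 at E12.5, sorted as Ter119-Sca-1+c-kit+EPCR+, and 16 at E14.5, sorted as Ter119-Sca-1+c-kit+CD48-CD150+. Every gate left out cells with surface Ter119, a surface antigen of late erythroid cells. Tissue, age and gate changed together between the E11.5 groups and the liver groups, and age and gate changed together between E12.5 and E14.5 liver. Neither animals nor litters are named in the labels. Each group was therefore treated as 1 sample, so no difference has a replicate check and no test was made.

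Pooled depth was 60280645 reads for AGM, 22306075 for yolk sac and, for the liver, 19053123 on E12.5 and 20585452 on E14.5, with 250235 to 1926882 reads in a cell. Levels are CPM, a gene's reads divided by the total reads of its cell or group and multiplied by 1000000. Pooled levels carry exact 95% Poisson intervals and shares of cells carry exact 95% Clopper-Pearson intervals. These cover counting error only, since reads without molecular identifiers are not independent molecules, and differences between embryos are not covered.

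1 library stood apart. E12.5 liver cell 8 had the fewest reads (250235) and the fewest genes (1011) of all cells. It had reads of 6 of 8 macrophage markers, at a summed 27406 CPM, where the median over E12.5 cells was 68.7 CPM. Csf1r, the receptor for macrophage colony-stimulating factor, stood at 1958 CPM in it. Of 17 HSC markers it had reads of 1, by a single read. Kit, Cd34, Procr and Ly6a were at 0, although its gate asked for c-Kit, Sca-1 and EPCR. Zeros of single genes among these were not particular to it. Procr was at 0 also in E12.5 cells 4, 6 and 15, Ly6a in cell 4 and Cd34 in cell 6. The E12.5 levels of Tfrc and Rhd, which rest on cell 8, are also given without that cell.

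The members lie apart in the genome, on 7 chromosomes of GRCm38 in GENCODE M21. Of the early members, Gata1 (ENSMUSG00000031162) spans chrX:7959260-7978071 and Klf1 (ENSMUSG00000054191) spans chr8:84901928-84905291. Epor (ENSMUSG00000006235) spans chr9:21958897-21963506 and Tfrc (ENSMUSG00000022797) spans chr16:32608920-32632794. Of the late members, Alas2 (ENSMUSG00000025270) spans chrX:150547375-150570638 and Slc4a1 (ENSMUSG00000006574) spans chr11:102348824-102366203. Epb42 (ENSMUSG00000023216) spans chr2:121017891-121037072 and Rhd (ENSMUSG00000028825) spans chr4:134864536-134896172. The values count reads over whole genes, so exons were not told apart.

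The start regions of the members are shown because GATA1 and KLF1, the products of 2 members, bind short motifs in DNA. RefSeq promoters on GRCm38.p6 were matched for 7 of the 8 members, without Slc4a1. The 250 bases before each start were searched on both strands for the GATA letters AGATAA or AGATAG or TGATAA or TGATAG. At least 1 match was present in Klf1, Epor, Alas2, Epb42 and Rhd, and none in Gata1 or Tfrc. In all, 26.5% of 32851 promoters held a match in a window of that length. The 5 stretches around the match, outside every annotated exon, read 5′ to 3′ on the gene's strand with the GATA match in capitals.
Klf1 (chr8:84901842-84901927, + strand): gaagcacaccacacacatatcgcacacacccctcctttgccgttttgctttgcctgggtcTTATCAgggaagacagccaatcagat
Epor (chr9:21963577-21963690, - strand): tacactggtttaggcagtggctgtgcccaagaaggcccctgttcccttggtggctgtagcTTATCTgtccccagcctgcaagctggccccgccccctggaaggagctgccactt
Alas2 (chrX:150547271-150547374, + strand): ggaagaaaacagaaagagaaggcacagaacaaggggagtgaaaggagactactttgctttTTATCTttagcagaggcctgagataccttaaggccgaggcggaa
Epb42 (chr2:121037073-121037127, - strand): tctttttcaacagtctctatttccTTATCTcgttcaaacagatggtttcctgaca
Rhd (chr4:134864433-134864535, + strand): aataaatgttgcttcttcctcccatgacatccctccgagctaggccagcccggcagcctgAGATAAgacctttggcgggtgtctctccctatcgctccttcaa
The match lay in the reverse orientation in Klf1, Epor, Alas2 and Epb42 and in the forward orientation in Rhd. Counted from the RefSeq start, it began 43 bases before it in Rhd, 54 in Epor, 80 in Klf1 and 86 in Alas2, and in Epb42 it lay farthest from the start. The letters CCNCNCCC, which cover the CACC boxes that KLF proteins bind, were present in the same window of Gata1, Epor, Tfrc and Alas2, against 45.9% of all promoters. Tfrc had 2 promoters, each searched in its own window, and the letters were present in both. Epor and Alas2 held both motifs, as did 8.19% of all promoters. These letter matches describe the windows and were not tested as binding sites.

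Gata1, which encodes the GATA factor of erythroid and megakaryocytic cells, had no read in the 48 AGM cells or the 16 yolk sac cells, which allows shares of up to 6.25% and 18.8% when 0 is taken as 3 cells (the upper Clopper-Pearson limits are 7.40% and 20.6%). At E12.5 it had 4 reads in cell 6 and none in the other cells. At E14.5 it had reads in 5 of 16 cells (31.2%, interval 11.02 to 58.7%), at 368 CPM in cell 3, 302 in cell 16, 243 in cell 8, 39.7 in cell 13 and 0.66, a single read, in cell 7. The gene was therefore read at more than 1 read in 4 E14.5 cells and was near 0 or at 0 in the rest. The pooled level was 47.7 CPM on E14.5 (44.7 to 50.7; 32.4 CPM without cell 3), where E12.5 liver had 0.21 CPM (0.06 to 0.54).

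Klf1, which encodes the activator of adult beta-globin and of membrane and heme genes, was read in 3 AGM cells (6.77, 1.11 and 0.91 CPM), in 1 yolk sac cell (3.11 CPM) and in 1 E12.5 cell (0.82 CPM, 1 read). At E14.5 it was read in 6 of 16 cells, at 1477 CPM in cell 16, 1391 in cell 8, 1268 in cell 3, 175.4 in cell 13, 97.7 in cell 10 and 65.4 in cell 9. Every E14.5 cell with a Klf1 read lay above every cell of the other groups. Cells 9 and 10 had Klf1 but no read of Gata1. The pooled E14.5 level was 230.2 CPM (223.7 to 236.8), against 0.05 to 0.22 CPM in the 3 other groups.

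Epor followed another order. It was highest at E12.5, where 3 of 16 cells held all its reads, at 201.1 CPM in cell 4, 180 in cell 11 and 172.9 in cell 15, and none of those 3 cells had a read of Gata1, Klf1 or Tfrc. At E14.5 it was read in cell 9 at 134 CPM, cell 16 at 118 and cell 3 at 86.3. In AGM 5 of 48 cells had reads, from 3.83 CPM in cell 24 to 86.7 in cell 6, and in yolk sac 2 of 16 cells had 8.84 and 3.16 CPM. Pooled levels came in the order E12.5 liver (43.8 CPM), E14.5 liver (20.6), AGM (3.96) and yolk sac (0.94). The ranges of these levels with each cell left out in turn did not overlap between neighbours in that order, although 1 cell carried 52.4% of the E14.5 reads (10.7 CPM without cell 9), 56.9% of the AGM reads (1.76 CPM without cell 25) and 81.0% of the yolk sac reads (0.20 CPM without cell 1).

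Tfrc, which dividing cells of many kinds use for iron uptake, was the most widely read member. Reads were present in 10 of 16 yolk sac cells (62.5%, interval 35.4 to 84.8%) and 19 of 48 AGM cells (39.6%, 25.8 to 54.7%). In liver they were present in 6 of 16 cells on E14.5 (37.5%, 15.2 to 64.6%) and 5 of 16 on E12.5 (31.2%, 11.02 to 58.7%). Cells of AGM and yolk sac reached 99.5 and 104 CPM, and the median cell stood at 0 in AGM, 8.89 CPM in yolk sac and 0 in both liver groups. At E14.5 it stood at 154.6 CPM in cell 16, 140.6 in cell 3, 103 in cell 1, 81.0 in cell 13, 38.98 in cell 8 and 29.1 in cell 9. The 4 groups overlapped across cells. Pooled levels were 30.7 CPM in E14.5 liver, 29.6 in yolk sac, 17.8 in AGM and 13.1 in E12.5 liver, where the first 2 did not differ beyond the leave-one-out ranges. Cell 8 held 68.3% of the E12.5 reads, at 679 CPM, and the E12.5 level without it was 4.20 CPM.

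Alas2 was read at E14.5 in 7 of 16 cells, at 4818 CPM in cell 16, 2316 in cell 8, 1795 in cell 3 and 714 in cell 13, and by 1 read each in cells 1, 11 and 14. At E12.5 cell 15 had 198.7 CPM and cell 13 had 1 read. In AGM 2 cells had 5.53 and 2.54 CPM, and in yolk sac 1 cell had 3.12 CPM. Cell 15 of E12.5 liver was thus the single cell outside the E14.5 group with Alas2 above 10 CPM, and it also had 172.9 CPM of Epor, 3 or more reads of no other member, and globins at 295 CPM. E14.5 liver had a pooled level of 493 CPM (484 to 503), which was 266 CPM without cell 16. E12.5 liver had 11.8 CPM (10.3 to 13.5), which was 0.06 CPM without cell 15. Of the exon bases of Alas2, 12.9% are shared with Apex2, a DNA repair gene on the other strand, and the strand setting of the counting is not given in the sources used here. Apex2 stood at 33.2 CPM in E12.5 liver, 23.1 in AGM, 14.3 in yolk sac and 11.46 in E14.5 liver, and its part in the Alas2 values was not tested.

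Slc4a1 was read in E14.5 liver and in no cell of the 3 other groups. Its level was 486 CPM in cell 13, 345 in cell 3, 223.2 in cell 8 and 220.7 in cell 16, and 0 in the other 12 E14.5 cells. The share was 4 of 16 cells (25%, interval 7.27 to 52.4%), and the pooled level was 68.7 CPM (65.2 to 72.4), or 41.6 CPM without cell 13. A count of 0 reads, taken as a floor of 3, allowed up to 0.16 CPM in E12.5 liver, 0.13 in yolk sac and 0.05 in AGM.

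Epb42, whose product links band 3 to the skeleton, was read in 3 E14.5 cells, at 433 CPM in cell 3, 240 in cell 16 and 6.2 in cell 8. It was at 0 in cell 13, the cell with the highest Slc4a1. In AGM 3 cells had 18.7, 9.70 and 0.89 CPM, and yolk sac and E12.5 liver had no read. The pooled E14.5 level of 32.1 CPM (29.7 to 34.6) was 12.9 CPM without cell 3, and the AGM level of 0.38 CPM was 0.10 without cell 27.

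Rhd was read in 8 of 16 E14.5 cells, but 4 of these, cells 9 to 12, had 1 read each. The others were cell 16 at 2494 CPM, cell 3 at 2107, cell 8 at 1489 and cell 13 at 671. At E12.5 cell 8 had 627 CPM and cell 13 had 1 read. AGM had 1 read in all and yolk sac had none. The pooled E14.5 level was 344 CPM (336 to 352), and 230.6 CPM without cell 16. In E12.5 liver it was 8.29 CPM (7.05 to 9.69), of which cell 8 gave 99.4%, and 0.05 CPM without that cell.

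**Figure D1:**
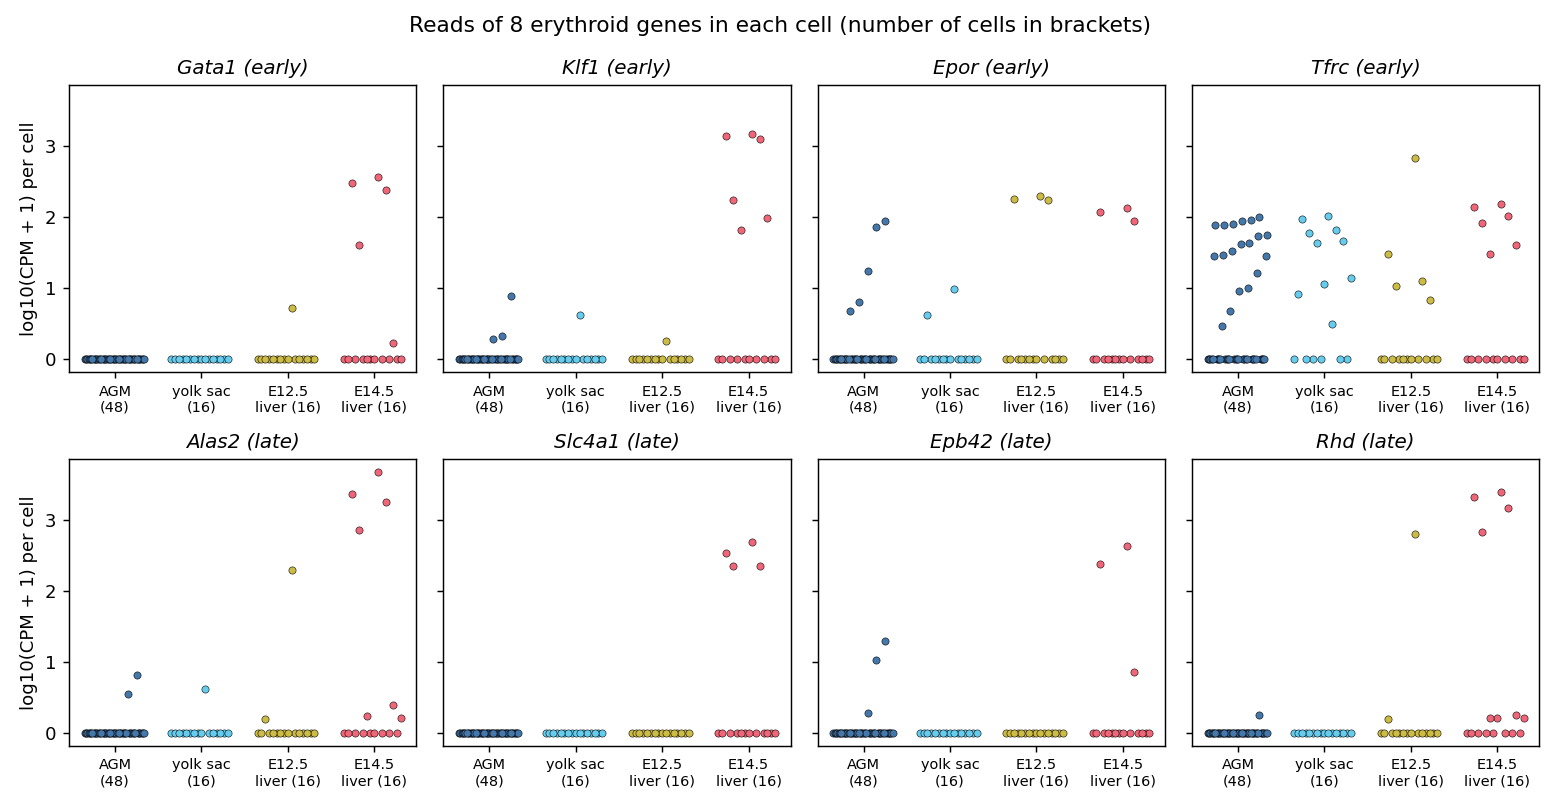
Each point is 1 cell, placed by its log10(CPM + 1) of the gene named above the panel, in AGM, yolk sac, E12.5 liver and E14.5 liver, with 0 for no read and the number of cells in brackets. Gata1, Klf1 and the 4 late members have their highest points in a few E14.5 cells, while Tfrc is spread over all groups and Epor is highest in 3 E12.5 cells.

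Levels can be compared between genes only per kilobase of transcript. In E14.5 liver the pooled level was 215.6 CPM per kilobase for Rhd, 205.3 for Alas2 and 150 for Klf1, and then 19.5 for Gata1, 14.1 for Slc4a1, 10.4 for Epor, 5.92 for Epb42 and 4.97 for Tfrc. In E12.5 liver the same scale gave 22.03 for Epor, 5.202 for Rhd, 4.91 for Alas2 and 2.11 for Tfrc, with Gata1 and Klf1 at 0.09 and 0.03. The order below Epor rested on 1 cell for each gene. Without E12.5 cell 8, Rhd was at 0.03 and Tfrc at 0.68, and without E12.5 cell 15, Alas2 was at 0.02. In AGM and yolk sac Tfrc led at 2.88 and 4.78, followed by Epor at 1.99 and 0.47.

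The members were also read jointly. At least 3 of the 4 early members were read in 5 of the 16 E14.5 cells, namely cells 3, 8, 9, 13 and 16, and in no cell from AGM, yolk sac or E12.5 liver. At least 2 of the 4 late members, with 3 or more reads each, were found in 4 E14.5 cells, namely cells 3, 8, 13 and 16, and again in no cell from the other groups. Counting any read, 1 E12.5 cell and 5 E14.5 cells had 2 or more late members, the added cells (13 at E12.5, 11 at E14.5) having a single read of each. Cell 9 of E14.5 liver had Klf1, Epor and Tfrc with a single read of Rhd as its only late member. Cells 3 and 16 had all 8 members, cell 8 lacked Epor, and cell 13 lacked Epor and Epb42.

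**Figure D2:**
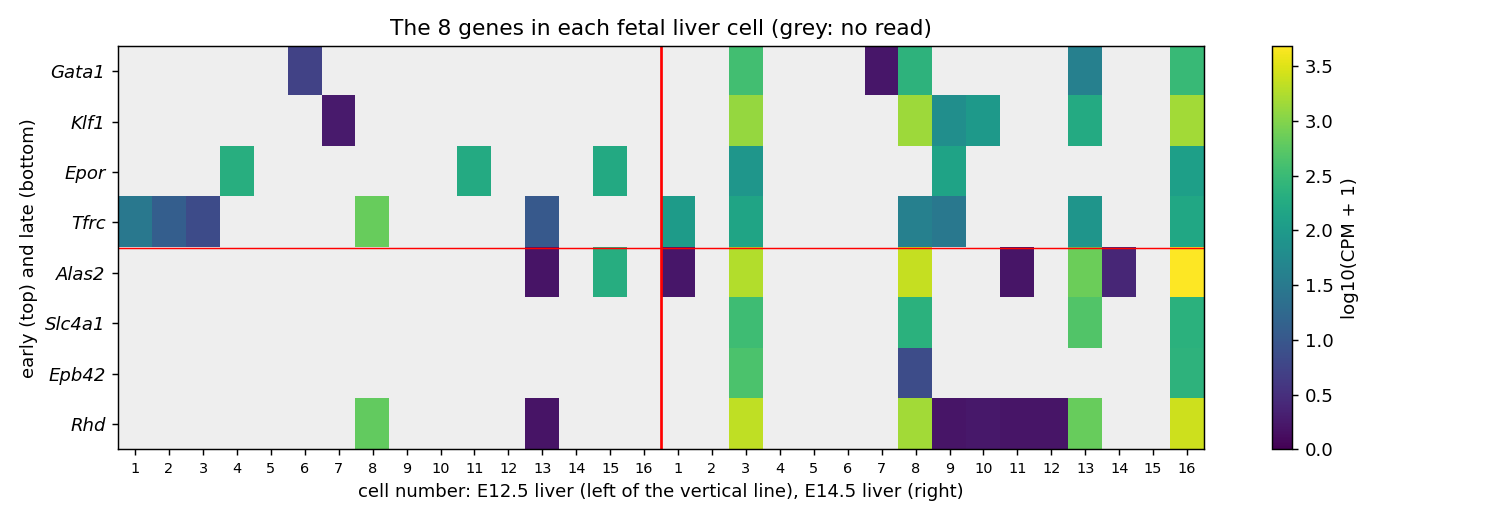
Colour gives log10(CPM + 1) of each of the 8 genes (rows) in each of the 16 E12.5 and 16 E14.5 liver cells (columns), with grey for no read. Columns 3, 8, 13 and 16 of E14.5 liver are filled for Gata1, Klf1, Alas2, Slc4a1 and Rhd, while E12.5 columns hold at most 1 early member each.

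Cells 3, 8, 13 and 16 of E14.5 liver are described by name because late members chose them, so their values support no comparison with the other cells. They held 21.2% of all E14.5 reads. Of the E14.5 reads of each gene they held 100% for Slc4a1 and Epb42, 99.9% for Gata1 and Rhd, 94.98% for Klf1, 69.0% for Tfrc and 47.6% for Epor. Among the 4, cell 13 had the lowest Gata1, Klf1, Alas2 and Rhd and the highest Slc4a1. Its globin reads were 4.42% of all its reads, against 12.9% in cell 8, 14.9% in cell 3 and 23.1% in cell 16. The highest share in the other liver cells was 0.151%, except E12.5 cell 8 with 1.34% and E12.5 cells 2 and 11 with 0.22% and 0.20%.

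These cells also had stem cell transcripts. Of 17 HSC markers, cell 3 had reads of 15, cell 13 of 14, cell 16 of 10 and cell 8 of 9, where E14.5 cells ranged from 6 to 15. The summed level of these markers ran from 1577 to 3397 CPM in the 4 cells, within the range of 1264 to 4826 CPM over the group. Kit stood at 322 CPM in cell 13, 176.01 in cell 16, 60.7 in cell 3 and 0 in cell 8. Slamf1, which encodes the CD150 of the gate, stood at 511 CPM in cell 13 and 257 in cell 8 and at 0 in cells 3 and 16. It was read in only 4 of the 16 E14.5 cells, so a 0 was common in the group. Cd48, whose surface product the gate left out, stood at 55.6 CPM in cell 13, 23.4 in cell 3 and 0 in cells 8 and 16. It was read in 6 E14.5 cells. Cd48 is among the 17 HSC markers although the gate excluded its product. Its reads therefore raise the marker counts and sums of those 6 cells, cells 3 and 13 included.

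Markers of other lineages were read in the same cells. Macrophage markers, 8 in the list, were at 0 in cells 8, 13 and 16 and at 61.8 CPM in cell 3, from 1 gene, over an E14.5 range of 0 to 2801 CPM. Of 10 megakaryocyte markers, 0 to 3 were read in each, at a summed 1271 CPM in cell 8, 880 in cell 13, 475 in cell 3 and 0 in cell 16, where the E14.5 median was 476 CPM and the range 0 to 1765. The sums included Vwf at 99.1 CPM in cell 3 and Gp9 at 106.3 CPM in cell 8 and 91.3 in cell 13, while Pf4, Itga2b and Treml1 were at 0 in all 4. Hepatocyte markers were at 0 in 3 of the 4 cells and at 98.2 CPM in cell 16. No doublet caller was run, as 1 cell was sorted per well, and whether a well held more than its labelled cell was not tested.

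Yolk sac was set against AGM first. The log2 ratio of pooled levels, with 1 CPM added, was at least 2-fold higher in yolk sac for 0 of the 4 early and 0 of the 4 late members, where 8.61% of all 15239 genes were. It was at least 2-fold lower for 1 early and 0 late members, where 21% of all genes were. The 1 was Epor, with a ratio of 0.24 (0.14 to 0.37) and a log2 ratio of -1.35, and of -2.05 without yolk sac cell 1 and -0.51 without AGM cell 25. Tfrc differed by 0.70 on the log2 scale, by 0.43 to 0.88 with each cell left out, and by -0.06 when only AGM cells 1 to 16 were used. Slc4a1 and Gata1 had no read in either tissue, and Klf1, Alas2, Epb42 and Rhd all stood under 0.4 CPM in both. The median log2 ratio was 0.04 for the early and -0.01 for the late members, against -0.20 for all genes.

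E12.5 liver was next set against AGM, whose cells also serve the yolk sac comparison. At least 2-fold higher were 1 early and 2 late members, where 15.6% of all genes were, and at least 2-fold lower were 0 early and 0 late members, where 26% of all genes were. Epor was 11.1-fold higher (9.56 to 12.8), a log2 ratio of 3.17, with 2.59 without E12.5 cell 4 and 4.02 without AGM cell 25. Alas2 had a log2 ratio of 3.499 and Rhd of 3.19, and each rested on 1 cell. Without E12.5 cell 15 the ratio of Alas2 was -0.10, and without E12.5 cell 8 the ratio of Rhd was 0.05. Tfrc had a log2 ratio of -0.42, of -1.85 without E12.5 cell 8, and of 1.32 when the cells' CPM were averaged. The medians were 0.06 for the early members (0.96 with Gata1 at its bound) and 1.60 for the late members, against -0.20 for all genes. Leaving out E12.5 cell 8 brought the late members to a median of 0.03, and leaving out cell 15 instead to -0.05, with 1 late member at least 2-fold higher in either case.

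E14.5 liver was last set against E12.5 liver. At least 2-fold higher were 3 of the 4 early members and all 4 late members, where 18.7% of all genes were, and at least 2-fold lower were 1 early and 0 late members, where 18.2% of all genes were. Klf1 had a log2 ratio of 7.78 and, against 1 read at E12.5, a ratio of 4385 with a counting interval of 787 to 173247. Gata1 was 226.99-fold higher (88.4 to 835), a log2 ratio of 5.33. Tfrc was 2.35-fold higher (2.03 to 2.74), a log2 ratio of 1.17, which was -0.42 when the cells' CPM were averaged and -0.50 when all cells were thinned to 250000 reads. Epor was lower, with a log2 ratio of -1.05. Alas2 was 41.8-fold higher (36.6 to 47.9) and Rhd 41.4-fold higher (35.4 to 48.8). Slc4a1 was at least 437-fold higher and Epb42 at least 203.6-fold higher, each against a floor of 3 reads over the 16 E12.5 cells. The medians were 3.25 for the early and 5.24 for the late members (6.47 with genes at their bounds), against 0 for all genes.

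These differences rested on few cells on both sides. Without E14.5 cells 3, 8, 13 and 16, the E14.5 levels over the 12 kept cells were 14.7 CPM for Klf1, 13.7 for Epor, 12.1 for Tfrc, 0.06 for Gata1, 0.18 for Alas2, 0.25 for Rhd and 0 for Slc4a1 and Epb42. The log2 ratios over E12.5 then stood at 3.90 for Klf1, -0.11 for Tfrc, -0.19 for Gata1, -1.61 for Epor, -2.90 for Rhd and -3.43 for Alas2. The cells left out were picked by their late member reads, so a fall of the late members was set in advance. The E12.5 side of these ratios kept cells 8 and 15. Its Rhd level was 8.29 CPM, or 0.05 without cell 8, and its Alas2 level 11.8 CPM, or 0.06 without cell 15. With all E14.5 cells kept but without E12.5 cell 8, the ratio of Tfrc was 2.61 and that of Rhd 8.35. Without E12.5 cell 15 that of Alas2 was 8.87. That of Slc4a1 was 5.41 without E14.5 cell 13 and that of Epb42 3.80 without E14.5 cell 3. Leaving out E14.5 cell 9 gave a ratio of -1.94 for Epor, leaving out E12.5 cell 4 gave -0.47, and that of Tfrc was 0.84 without E14.5 cell 16. In pooled reads, fewer cells with a transcript and less of it per cell cannot be told apart, which is why the per-cell values are given beside each level.

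Genes around the members were counted from lists made for their known roles, in the same comparison of E14.5 with E12.5 liver. Of 13 heme synthesis genes, without Alas2, 10 were at least 2-fold higher and 0 lower, with a median log2 ratio of 2.27. Over all genes the shares were 18.7% higher and 18.2% lower, and 17.5% and 19.2% without E14.5 cells 3, 8, 13 and 16. Tspo2, an erythroid heme-related membrane protein, was at least 422-fold higher and Abcb6, a porphyrin transporter, at least 161.97-fold higher. Cpox, a late enzyme of the pathway, was 21.2-fold higher (17.6 to 25.8) and Slc25a38, the mitochondrial glycine carrier, 11.3-fold higher (9.93 to 12.9). Without the 4 E14.5 cells 3 were higher and 2 lower, with a median of 0. Those cells held 80.1% of the E14.5 reads of the median heme gene. Alas1, the form of the first enzyme used by most tissues, had a log2 ratio of -0.79, where Alas2 had 5.27.

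Red cell membrane and skeleton genes were counted without the members. Of 20 tested, 13 were at least 2-fold higher and 2 lower, where 18.7% and 18.2% of all genes were. The median log2 ratio was 4.04. Kel, the Kell antigen, had a log2 ratio of 6.90, and Rhag, the partner of Rhd in the Rh complex, was at least 690-fold higher. Ermap, a blood group protein, was at least 319-fold higher. Without the 4 E14.5 cells 0 were higher and 2 lower, where 17.5% and 19.2% of all genes were. Rhag was at 727 CPM in cell 16, 617 in cell 3, 543 in cell 8 and 234.1 in cell 13, all sorted as Ter119 negative.

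Late enzymes and maturation genes gave 11 higher and 2 lower of 19, where 18.7% and 18.2% of all genes were. Trim10 was at least 629-fold higher, Hemgn, a nuclear protein of blood cells, was 218.03-fold higher (134 to 382) and Tspan33 134-fold higher (70.2 to 293). Without the 4 E14.5 cells 2 were higher and 4 lower. Iron uptake and storage genes gave 7 higher and 2 lower of 14, and 5 higher and 3 lower without those cells, where 17.5% and 19.2% of all genes were. Slc11a2, the endosomal iron transporter that works after the transferrin receptor, had a log2 ratio of 4.96 and Tfr2, the other transferrin receptor, 3.99. Slc40a1, the iron exporter, and Hfe had 2.77 and 2.69, each from 1 E14.5 cell.

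The regulator lists gave other counts. Of 18 further erythroid transcription factors, 1 was at least 2-fold higher and 2 lower, where 18.7% and 18.2% of all genes were, with a median of 0.14. E2f2, a cell cycle factor, was at least 186.04-fold higher, while Klf3 had -1.28, Ikzf1 -1.14 and Zfpm1, the cofactor of Gata1, -0.95. Of 13 genes of erythropoietin signalling, 2 were higher and 6 lower, with a median of -0.98. Bcl2l1, the survival factor of erythroblasts, stood at 39.1 CPM, and against its 1 read in E12.5 liver the ratio was 746 (134 to 29502). Cish, a feedback inhibitor, had -4.55, Jak2, the kinase bound to the receptor, -4.00, and Socs2 -3.57. Without the 4 E14.5 cells the counts were 1 higher and 1 lower for the transcription factors, and 1 and 6 for erythropoietin signalling. Of all genes 17.5% were then higher and 19.2% lower.

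**Figure D3:**
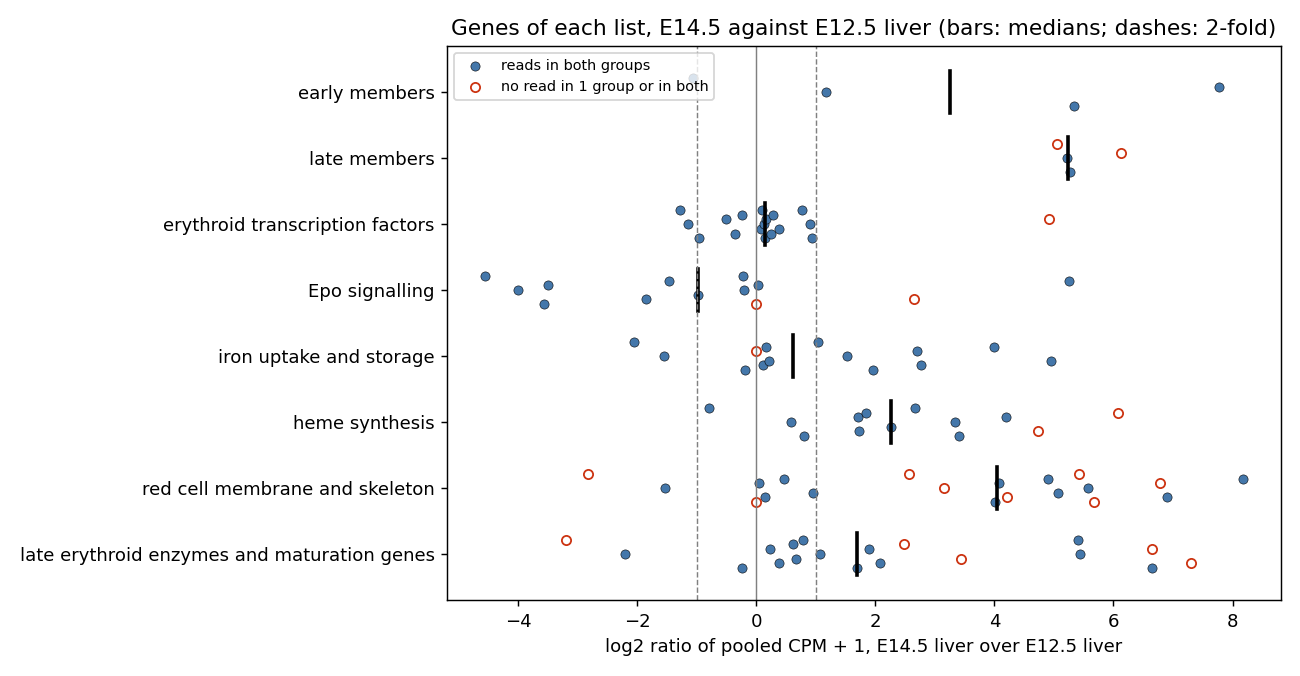
Each point is 1 gene of the list on the left, placed by its log2 ratio of pooled CPM + 1 in E14.5 over E12.5 liver, with open points where 1 group or both had no read, bars for list medians and dashes at 2-fold. Late members, heme and membrane genes lie mostly to the right of the dashes, while most erythroid transcription factors lie between them and Epo signalling genes lie on both sides.

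**Figure D4:**
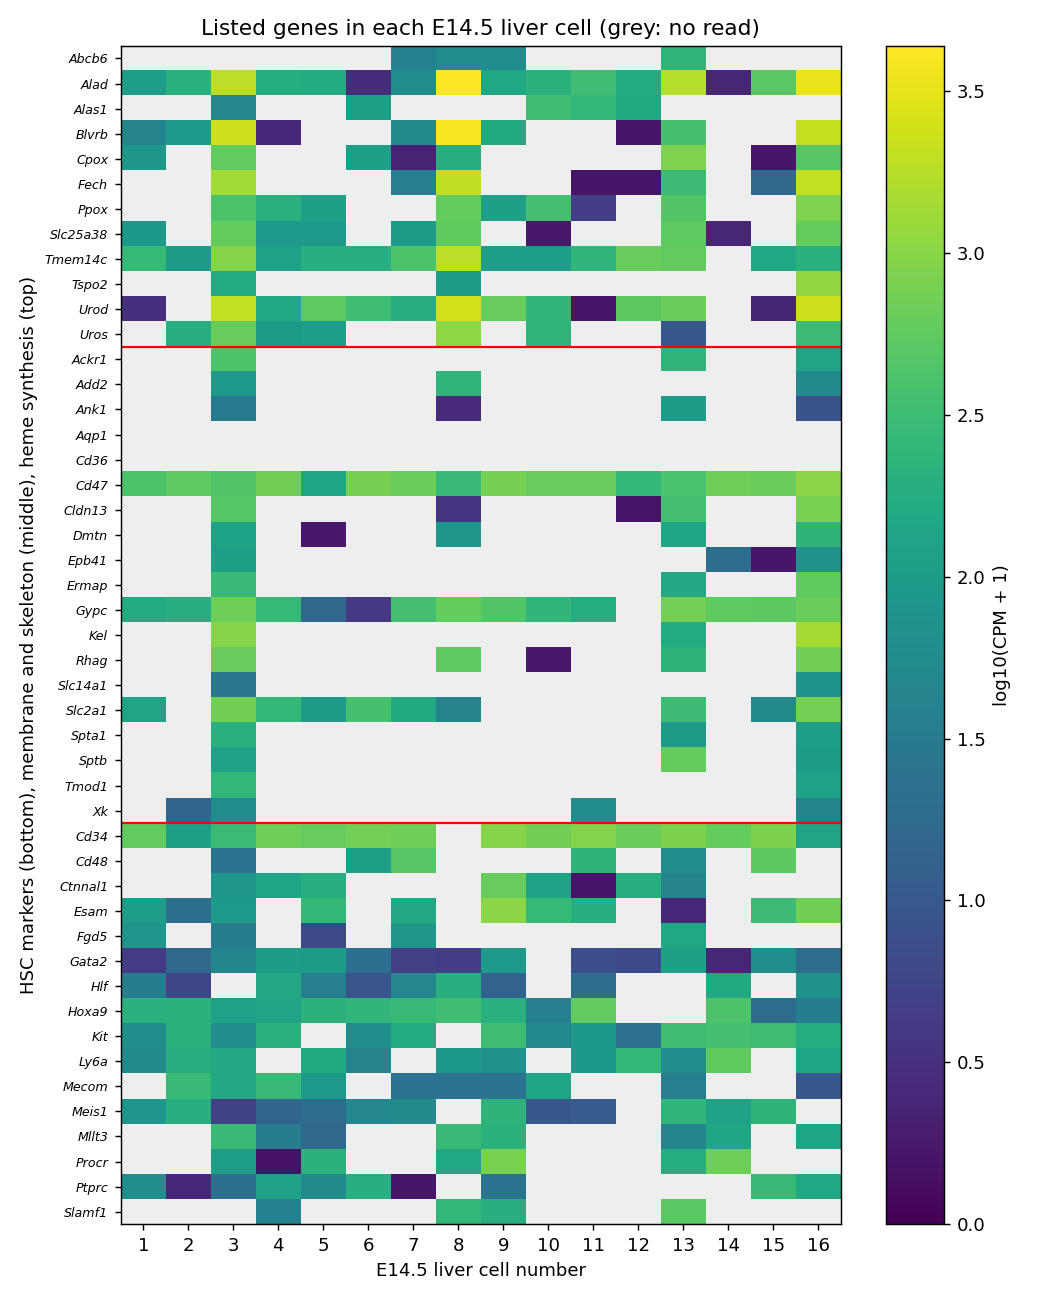
Colour gives log10(CPM + 1) of heme synthesis genes, membrane and skeleton genes and HSC markers (rows) in the 16 E14.5 liver cells (columns), with grey for no read. Membrane genes such as Rhag and Ank1 are filled in columns 3, 8, 13 and 16, while Cd47, Alad and many HSC markers are read across most columns. Some listed genes are not shown.

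The same lists were counted in the earlier comparisons. In E12.5 liver against AGM, where 15.6% of all genes were at least 2-fold higher and 26% lower, 3 of 13 heme genes were higher and 2 lower, and of 20 membrane genes 0 were higher and 2 lower. Of 18 erythroid transcription factors 5 were higher and 1 lower, of 14 iron genes 1 and 5, and of 19 late enzymes and maturation genes 3 and 6. Blvrb had a log2 ratio of 1.80, Alas1 1.39 and Slc25a38 -1.65, and Rhag was at least 20.02-fold lower. Of erythropoietin signalling genes 6 were higher and 2 lower, with Cish at 2.88 and Pim1 at 2.67 and Bcl2l1 and Socs3 both at -4.42. Cish was read in 3 E12.5 cells, of which cell 11 also had Epor, at 160 CPM of Cish. In yolk sac against AGM, 1 heme gene, Cpox, and 1 membrane gene, Tmod1, were higher, the latter from 1 cell in each tissue, and 0 and 2 were lower, where 8.61% of all genes were higher and 21% lower. The transcription factors gave 2 higher and 4 lower, erythropoietin signalling 3 and 3, and the iron list and the late enzymes each 2 and 5.

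The genes most like the members over the 96 cells were ranked by Pearson's r of log2(CPM + 1) with the mean of the late or the early members, among 13578 genes with a read in at least 4 cells. With the late members the 8 highest included Slc38a5 (0.97), 6030468B19Rik (0.93), Hbq1b (0.89), Hemgn (0.88), Cldn13 (0.88), Kel (0.87) and Gm45774 (0.86). With the early members they included Slc38a5 (0.79), Hbq1b (0.76), Hemgn and 6030468B19Rik (both 0.75), Cldn13 and Kel (both 0.74) and Hbb-bs (0.72). Slc38a5, an amino acid transporter, was read in 4 cells in all, and all were in E14.5 liver. The number of genes detected per cell had r of -0.10 with the late and 0.15 with the early members. All these values share the same libraries and rest on the few cells with reads, and are given as a description.

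Among the members themselves, Gata1 and Klf1 had r of 0.87 over the 96 cells, and Gata1 had 0.96 with Slc4a1, 0.91 with Alas2, 0.89 with Rhd and 0.78 with Epb42. Gata1 had 0.30 with Epor and 0.31 with Tfrc over the 96 cells, and 0.52 and 0.76 within the 16 E14.5 cells. Gata1 was at 0 in AGM and yolk sac and was read in 1 E12.5 cell, whereas Epor and Tfrc were read in all 4 groups.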

How the data were processed

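Per the labels, single cells were sorted into a 96-well plate and converted to cDNA with a SMART-Seq kit. The deposited table gives whole-number read counts for every gene, not normalized, in 96 columns that all matched a sample by name. FastQC, Trimmomatic 0.36, STAR, HTSeq and build mm10 are named in the submitters' processing notes. The annotation release is not given in the sources used here, so lengths are exon unions of GENCODE M21. Of 19949 rows, 113 shared a symbol and were summed. Cells with at least 1000 genes were kept, which removed 0.

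Cells were grouped by tissue and day. Reads were summed per group and scaled to CPM. Ratios are log2 of pooled CPM with 1 CPM added, which understates changes of low genes. A gene at 0 was set to a floor of 3 reads per group for fold bounds. Python 3.11.15, numpy 2.4.6, scipy 1.17.1, pandas 2.3.3 and matplotlib 3.10.9 were used. The ratio calculation was tested on simulated Poisson counts of pooled groups. That simulation held no spread between cells, so it does not bear on values that rest on single cells.

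Named genes were the 8 members, at most 4 genes per list and comparison with the largest ratios, markers read beside a named cell, and the 8 most alike genes. Alas1 and values of single cells were added after seeing the data. A few genes named by this rule are left unreported. The members and lists were chosen with earlier results of these data known. Alternatives were other scalings, 10 CPM added, thinning to 250000 reads, cells with 2000 genes, AGM cells 1 to 16, no read minimum, and each cell left out. Leaving out the E14.5 cells with late members was chosen after seeing the data.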

Additional observations from a re-analysis of the deposited data

How the results depend on the processing

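Each count of members past 2-fold was paired with each alternative. Of these pairs, 54 for the early and 61 for the late members stayed within 1.5 times of the reported count, and 12 and 5 moved. Some pairs could not move, as all members passed the read minimum and some left-out cells were in neither group of a comparison. The pairs that stayed are therefore no measure of stability. Of the members' log2 ratios under the alternatives, 71 left their counting interval, and 7 that had been past 2-fold changed sign. In yolk sac against AGM, the count of early members lower was 0 with 10 CPM added, where 475 of all 15239 genes were lower. It was 0 to 1 with each cell left out (0 without AGM cell 25). In E12.5 liver against AGM, early members higher numbered 2 with the mean of the cells' CPM and after thinning, through Tfrc (1.32 and 1.46). Of all 15239 genes, 2303 and 2290 were higher in these settings. Early members lower numbered 1 with at least 2000 genes per cell or AGM cells 1 to 16, where 3963 and 4127 of all genes were lower. With each cell left out they numbered 0 to 1 (1 without E12.5 cell 8). Late members higher numbered 1 with 10 CPM added or at least 2000 genes per cell, where 1087 and 2373 of all genes were higher. With each cell left out late members higher numbered 1 to 2. Alas2 ranged from -0.10 (without E12.5 cell 15) to 3.64. In E14.5 against E12.5 liver, E14.5 cells 3, 8, 13 and 16 were left out. Then 1 early and 0 late members were higher, and 1 early and 2 late members lower. Over all genes 17.5% were higher and 19.2% lower in this setting. Tfrc stood at -0.11, Gata1 at -0.19, Alas2 at -3.43 and Rhd at -2.90. The cells were picked by late member reads, and the 2 late members lower rested on E12.5 cells 15 (Alas2) and 8 (Rhd). Early members higher numbered 2 in place of 3 with the mean of the cells' CPM, after thinning and with 10 CPM added. Of all 15239 genes, 3056, 3073 and 1237 were higher in these settings. With each cell left out early members higher numbered 2 to 3. Early members lower numbered 0 in the same 3 settings, where 2800, 2886 and 1135 of all genes were lower, and 0 to 1 with each cell left out. Tfrc was -0.42 with the mean of the cells' CPM and -0.50 after thinning. E12.5 cells with 2 or more late members numbered 0 at 10 CPM or 3 reads, and 0 to 1 with each cell left out. Depth limits the absent genes to the floors given, and 16 cells limit shares to the wide intervals given. No paired analysis was possible because no test was made and the cell numbers do not link the groups.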

Other observations

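The globin types differed between the cells with most member reads. Adult Hba-a1 and Hbb-bs led in the E14.5 cells with late members, at 108503 and 69850 CPM in cell 16, 71509 and 44257 in cell 3, 70076 and 40690 in cell 8, and 20942 and 15167 in cell 13. Hbb-bh1, an embryonic beta-like globin, stood at 11171 CPM in cell 16, 3975 in cell 3, 47.6 in cell 13 and 0 in cell 8. The embryonic Hbb-y and Hba-x were at 0 in all 4 cells. E12.5 cell 8, with 627 CPM of Rhd beside its macrophage markers, had Hbb-y at 5043 CPM and Hba-x at 2909 CPM beside Hba-a1 at 2993 CPM, and no read of Gata1, Klf1, Alas2, Slc4a1 or Epb42. The part of macrophage markers and of shallow depth in the values of that library was not tested. Embryonic globins were not particular to it. E12.5 cell 11, with Epor and no read of Csf1r, had Hbb-y at 1146 CPM and Hba-x at 329 CPM beside Hba-a1 at 334 CPM.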
